A study of Mus musculus with 35 samples.

Results

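Overexpression of Dnmt1 in Tet3 wild-type cells was measured by RNA-seq in 4 samples, chosen by their labels from the 12 samples of a Dnmt1 experiment within a series of 35. All 4 were V6.5 mouse embryonic stem cells (ESCs), a male line of mixed 129 and C57BL/6 background, with intact Tet3 (Tet3+/+), collected after 72 hours without LIF and with 1 µM retinoic acid, the treatment by which the study makes neuroectoderm (NE) cells. Of these, 2 samples had received an empty vector (EV) and 2 the pCAG-myc-Dnmt1-IRES-blast vector (Dnmt1 with a myc tag), whose CAG promoter is active in most cell types, and transfected cells were selected with blasticidin. Because the column headers give both EV samples the same number, they are called EV samples a and b here, and the others Dnmt1 samples 1 and 2. The same vectors were put into Tet3 catalytic mutant (Tet3m/m) and Tet3 knockout (Tet3-/-) cells, with 2 samples per genotype and vector, and these 8 samples serve to compare the size of the response and share the estimate of spread between samples. The sources used here do not say whether the 2 samples of a group were separate cultures or clones, so the p-values measure the spread between these samples, which may be technical. The selected cells were analysed in bulk, and the level of the vector in single cells is unknown.

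DNMT1 is the maintenance DNA methyltransferase: after replication it copies CpG methylation from the old DNA strand to the new one, guided to half-methylated sites by UHRF1. The TET enzymes work in the other direction by oxidizing 5-methylcytosine, and DNMT3A and DNMT3B place methylation at new sites. In ESCs, promoters of many germ cell genes and one parental copy of some imprinted genes are classic examples of loci that CpG methylation keeps silent.

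With the Dnmt1 vector, 76 of 18055 genes tested rose (0.421% of the genes) and 136 fell (0.753%), where a differentially expressed gene (DEG) differed more than 1.5-fold at a limma adjusted p under 0.05. Germ cell genes were lower as a group: all 31 tested members of a list of methylation-controlled germline genes had lower means with Dnmt1, and 6 of them, among them Dazl and Mov10l1, were DEGs. Several gene families known from the early embryo, listed after the DEGs had been seen, were also lower. Among the genes that rose were the neural genes Zic1, Neurog1 and Tubb3 and the cyclin gene Ccnd1. The netrin receptors Unc5a and Unc5c, picked after their values had been seen, rose too. Dazl, Mov10l1, Neurog1 and Unc5a did not remain DEGs in every fit with 1 library left out, which has less power. In Tet3-/- cells with the same vector the germ cell genes were mostly higher. In bulk RNA, fewer cells of a type and less RNA per cell cannot be told apart.

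The deposited values are read counts divided by a size factor of the library (normalized read counts), and the 4 libraries held 34983643 to 41127516 assigned reads. Each library lay nearest to the other one of its group (log2 distance over all genes of 58.4 for EV and 56.5 for Dnmt1, against 61.4 to 69.0 between groups). The median log2 level of any chromosome's genes in a library differed from that in the other libraries by between -0.025 and 0.035. Over all genes tested, the median log2 fold change was 0.0016. Of the neuroectoderm markers, Sox1, Sox2, Sox3, Pax6 and Nes had normalized read counts of 609 to 6506 in every library, and Hes5 and Neurog2 had at most 61.7. The cultures also held markers of other cell types: the pluripotency factor Nanog was at 5275 to 5804, the endoderm factor Gata4 at 3182 to 3794, the trophoblast keratin Krt7 at 3242 to 3641 and the collagen gene Col1a1, a fibroblast marker, at 7499 to 8953. Each of these was the highest marker of its list. Of the others, the pluripotency factor Pou5f1 was at 4780 to 5102, endoderm Gata6 at 2118 to 2258 and fibroblast Col1a2 at 5026 to 7343, and some were far lower. Trophoblast Elf5 was at 15.8 to 36.2, fibroblast Lum at 4.64 to 12.8 and endoderm Afp at 23.2 to 70.3. Klf4, the lowest pluripotency marker, was at 1003 to 1115. Of 5 mesoderm markers, 4 were listed, with a summed level of 173 to 256, and T was at 10.1 to 24.5. The sum of 7 fibroblast markers was 19424 and 17673 with EV and 18853 and 17731 with Dnmt1, and that of 9 neuroectoderm markers was 15398 and 16136 against 19384 and 18626. The sum of 5 markers of pluripotent cells was 17499 and 17433 with EV and 18969 and 18863 with Dnmt1, and that of the mesoderm markers was 256 and 212 against 199 and 173. The groups did not overlap for neuroectoderm and pluripotent cells, both higher with Dnmt1, or for mesoderm, lower with Dnmt1. They overlapped for fibroblasts, endoderm and trophoblast. Of all 18055 genes tested, 9511 had values that did not overlap. No mesoderm marker passed the adjusted p, and Kdr, the highest of them, had groups that overlapped. Nes, Zic1, Tubb3 and Esrrb passed it as higher, whereas Sox3 and Pax6 had log2 fold changes of -0.17 and -0.01. The part of these cell types in the results was not tested.

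Dnmt1 itself had normalized read counts of 14679 and 15225 with EV and 22799 and 23768 with the Dnmt1 vector. Both Dnmt1 samples were above both EV samples, by 1.56-fold (log2 fold change 0.64 ± 0.065 (SE), limma adjusted p = 5.66e-06). With any 1 of the 4 libraries left out, the log2 fold change was 0.61 to 0.67 and Dnmt1 remained a DEG. In Tet3m/m cells Dnmt1 went from 11934 and 11285 to 20245 and 23211, and in Tet3-/- cells from 17356 and 17554 to 33380 and 39854, with log2 fold changes of 0.90 and 1.06. The effect in wild-type cells was smaller than that in Tet3-/- cells by a log2 difference of -0.42 (limma adjusted p = 0.00502, below 1.5-fold), and the difference of -0.26 from Tet3m/m cells did not pass the test (limma adjusted p = 0.226). Counts per gene do not separate reads of the vector's coding sequence from those of the cell's own gene.

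**Figure D1:**
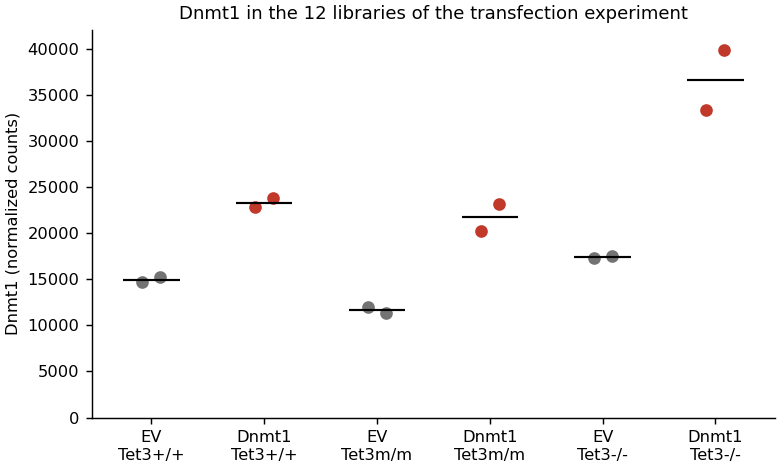
Normalized read count of Dnmt1 (y axis, from 0) in each of the 12 libraries of the Dnmt1 experiment, by genotype and vector; each point is a library and each line a group mean. In wild-type cells the EV libraries were at 14679 and 15225 and the Dnmt1 libraries at 22799 and 23768.

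No other member of the DNA methylation machinery was a DEG. Of 22 members tested, 16 were higher and 6 lower with Dnmt1, and their median log2 fold change was 0.10. Uhrf1, which brings DNMT1 to half-methylated DNA, had 14232 and 14878 with EV and 16014 and 15431 with Dnmt1. Although these pairs did not overlap, the difference was small and did not pass the test (log2 fold change 0.11, limma adjusted p = 0.149). The de novo methyltransferase genes had log2 fold changes of 0.15 (Dnmt3a) and -0.015 (Dnmt3b), and Dnmt3l, which codes for their cofactor without catalytic activity, had -0.23 (limma adjusted p = 0.087). Pcna, the replication clamp that binds DNMT1, had 0.15, and Zfp57 and Trim28, which protect imprinted methylation, had 0.17 and 0.10, none of which passed the test. The other members lay between -0.079 (Uhrf2) and 0.29 (Trdmt1), except Dppa3, whose product keeps UHRF1 off chromatin, at -0.34 (adjusted p = 0.493 by limma).

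Of 10 genes of active demethylation, 8 were higher and 2 lower, and none was a DEG. Tet3 had 2957 and 3075 with EV and 3514 and 3516 with Dnmt1, so both Dnmt1 samples were higher, but the log2 fold change of 0.22 did not pass the test (limma adjusted p = 0.101). Tet2 had 1823 and 1749 with EV and 2146 and 2237 with Dnmt1 (log2 fold change 0.30, limma adjusted p = 0.0485), and Gadd45g, a stress gene that has been tied to demethylation, had 0.29. Both passed the adjusted p but differed by less than 1.5-fold. At the adjusted p alone, DEGs included, 497 of all genes tested were higher (2.75%) and 513 lower (2.84%). The remaining genes had log2 fold changes of 0.21 (Tet1), 0.10 (Tdg, the glycosylase that removes oxidized 5-methylcytosine), 0.12 (Apex1), 0.068 (Gadd45a), -0.18 (Gadd45b), 0.13 (Idh1) and -0.053 (Idh2).

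All 212 DEGs had EV and Dnmt1 values that did not overlap. So had 9511 of all 18055 genes tested, with 26.5% of all genes tested higher in this way and 26.2% lower. The fold change exceeded 2 in 27 of the 76 genes that rose and in 31 of the 136 that fell, with median log2 fold changes of 0.89 and -0.82. At an unadjusted p under 0.05 there were 3592 genes. Where a single number stands beside a gene name in what follows, it is the log2 fold change of Dnmt1 over EV. Of the 212 DEGs, 39 remained DEGs whichever of the 4 libraries was left out (20 higher and 19 lower) and 78 were lost with each of them. The number of DEGs was 109 without EV sample a, 127 without EV sample b, 75 without Dnmt1 sample 1 and 165 without Dnmt1 sample 2.

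**Figure D2:**
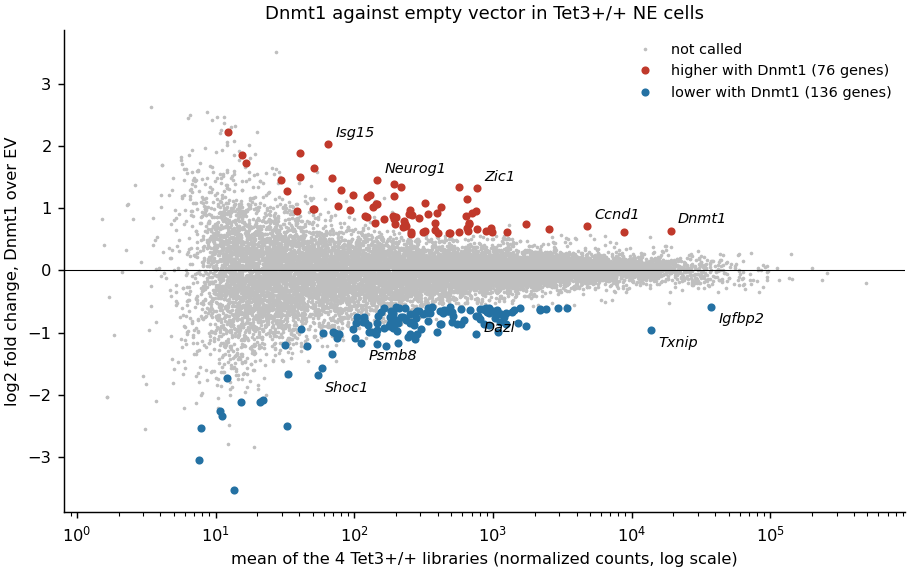
Log2 fold change of Dnmt1 over EV in wild-type cells (y axis) against the mean normalized read count of the 4 libraries on a log scale (x axis), 1 point per gene tested, with DEGs coloured. The 76 genes that rose and the 136 that fell lay on both sides of a median of 0.0016, with Dnmt1 itself at 0.64.

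Germ cell genes were lower throughout the list. The list of methylation-controlled germline genes held 36 genes, of which 31 were tested and the other 5 (Asz1, Magea10, Tdrd6, Xlr4a and Xlr4b) are not analysed here. The 31 ranged in log2 fold change from -1.47 to -0.0053, with a median of -0.63 against 0.0016 over all genes tested. The EV and Dnmt1 values did not overlap in 26 of them, as in 9511 of all 18055 genes tested. Their summed normalized read count was 12128 and 11739 with EV and 8734 and 8770 with Dnmt1. With 6 DEGs, 19.4% of the list had fallen, against 0.753% of all genes tested, and 8 passed the adjusted p alone. The list was chosen with earlier results of these data known, so these shares are a description.

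Dazl, an RNA-binding protein of germ cells, had 963 and 935 with EV and 546 and 597 with Dnmt1 (log2 fold change -0.73 ± 0.16 (SE), limma adjusted p = 0.0098). Taf7l, a germ cell form of a general transcription factor subunit, had 244 and 224 against 129 and 136 (log2 fold change -0.82 ± 0.17 (SE), limma adjusted p = 0.0055). In both genes each Dnmt1 sample was well below each EV sample. Members of the piRNA pathway, which silences transposons in the germ line, fell likewise. Mov10l1, the helicase that processes piRNA precursors, had 621 and 532 with EV and 357 and 378 with Dnmt1 (log2 fold change -0.65 ± 0.13 (SE), limma adjusted p = 0.00392). Piwil2, a PIWI protein that binds piRNAs, had 661 and 523 with EV and 356 and 430.1 with Dnmt1 (log2 fold change -0.59, limma adjusted p = 0.0126). Gpat2, also needed for piRNAs, was at 403 and 413 with EV and 257 and 252 with Dnmt1, a log2 fold change of -0.68. Tuba3a, a testis tubulin, fell by 0.66 on the log2 scale from 522 and 647 to 373 and 363. Because its reads can match the near-identical Tuba3b (log2 fold change -0.96), its count is uncertain.

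The piRNA gene Mael (log2 fold change -0.56, limma adjusted p = 0.00762) and the germ cell helicase Ddx4 (log2 fold change -0.52, adjusted p = 0.0037) passed the adjusted p but not the fold threshold. The weakest differences of the list were those of the meiotic genes Hormad1 (62.2 and 78.9 with EV, 54.3 and 89.6 with Dnmt1) and Sycp1 (227 and 212 with EV, 214 and 222 with Dnmt1), whose pairs overlapped. Several of these calls were lost with 1 library left out, a fit with 1 sample in a group and so with less power. In these fits the log2 fold change of Gpat2 ran from -0.70 to -0.66 and that of Piwil2 from -0.76 to -0.42. Without EV sample a the list held 1 DEG, and likewise without Dnmt1 sample 1. The limma adjusted p without Dnmt1 sample 1 was 0.133 for Dazl, 0.074 for Taf7l, 0.0731 for Mov10l1, 0.206 for Piwil2 and 0.0932 for Gpat2, and without EV sample a it was 0.0912, 0.0767, 0.0912, 0.211 and 0.0767. Tuba3a was lost without EV sample b (0.0813), as were Dazl (0.0698) and Gpat2 (0.0942), and Gpat2 also without Dnmt1 sample 2 (0.0772). All 6 genes were lower with Dnmt1 in each of these fits, which follows from EV and Dnmt1 values that did not overlap.

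Promoters of 29 of the 31 tested germline genes were available from RefSeq, as 300 bases around the annotated start in GRCm38.p6. Since these genes moved together, 3 of them are printed here with the promoter of Zic1, a gene that rose, for comparison, all written 5′ to 3′ along the gene with each CpG in capitals. The Dazl promoter (chr17:50293571-50293870, minus strand) holds 28 CpGs, that of Mov10l1 (chr15:88982744-88983043, plus strand) 20, that of Taf7l (chrX:134476441-134476740, minus strand) 17 and that of Zic1 (chr9:91365719-91366018, minus strand) 31.
Dazl: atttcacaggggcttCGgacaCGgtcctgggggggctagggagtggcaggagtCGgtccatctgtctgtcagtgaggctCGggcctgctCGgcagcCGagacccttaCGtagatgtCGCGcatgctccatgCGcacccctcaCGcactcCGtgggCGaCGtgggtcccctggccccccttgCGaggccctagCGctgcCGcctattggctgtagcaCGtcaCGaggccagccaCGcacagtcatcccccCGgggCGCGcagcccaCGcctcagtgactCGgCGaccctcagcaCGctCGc
Mov10l1: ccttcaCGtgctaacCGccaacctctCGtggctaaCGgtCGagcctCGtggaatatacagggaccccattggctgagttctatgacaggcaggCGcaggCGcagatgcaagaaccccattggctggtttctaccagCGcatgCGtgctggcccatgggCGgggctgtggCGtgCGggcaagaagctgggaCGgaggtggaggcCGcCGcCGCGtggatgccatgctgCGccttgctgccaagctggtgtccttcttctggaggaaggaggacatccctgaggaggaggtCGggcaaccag
Taf7l: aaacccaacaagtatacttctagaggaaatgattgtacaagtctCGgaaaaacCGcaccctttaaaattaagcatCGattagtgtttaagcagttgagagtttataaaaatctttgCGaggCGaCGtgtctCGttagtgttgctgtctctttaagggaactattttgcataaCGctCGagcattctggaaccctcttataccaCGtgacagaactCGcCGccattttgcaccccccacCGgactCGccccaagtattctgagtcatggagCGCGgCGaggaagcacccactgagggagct
Zic1: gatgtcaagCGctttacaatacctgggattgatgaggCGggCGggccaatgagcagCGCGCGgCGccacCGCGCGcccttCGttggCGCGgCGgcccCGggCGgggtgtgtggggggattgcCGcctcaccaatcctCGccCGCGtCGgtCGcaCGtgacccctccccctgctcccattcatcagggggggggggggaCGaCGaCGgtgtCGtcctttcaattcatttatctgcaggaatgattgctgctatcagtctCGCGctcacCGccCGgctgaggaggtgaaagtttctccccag
The median number of CpGs was 19 over the 29 germline promoters, 20 over the 12540 promoters of genes tested (69.5% of these genes had one) and 7 over all 27025 promoters of the table. The letters CACGTG, a site type bound by E-box factors and its own reverse complement, were present in 12 of the 29 (41.4%), in 9.90% of the promoters of genes tested and in 7.24% of all promoters, among those shown once each in Mov10l1, Taf7l and Zic1. The letters TCCCGC, known from E2F sites and searched on both strands, were in 13 of the 29 (44.8%), in 35.0% of the promoters of genes tested and in 20.0% of all promoters. Both were in 7 of the 29 (24.1%), against 3.80% of those of genes tested and 2.05% of all. No methylation was measured in the transfected cells here, and the letters are a description of these windows only.

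Further germ cell genes outside the list fell, and are named here after their values had been seen. Sohlh2, a transcription factor of early germ cells, had 1507 and 1490.1 with EV and 852 and 936 with Dnmt1 (log2 fold change -0.75 ± 0.077 (SE), limma adjusted p = 5.66e-06), and it remained a DEG whichever library was left out. Shoc1, a meiotic recombination gene, was at 79.0 and 88.1 with EV and 23.4 and 27.2 with Dnmt1 (log2 fold change -1.69, limma adjusted p = 0.0144). Both genes showed Dnmt1 values far below the EV values, but Shoc1 was lost with any 1 library left out (limma adjusted p of 0.0618 to 0.13). The meiosis-associated protease gene Prss50 fell by 1.02 on the log2 scale (202 and 186 against 88.4 and 102) and the testis cytochrome c gene Cyct by 0.87 (248 and 259.7 against 128 and 150.1). Both were likewise lost with any 1 library left out, with limma adjusted p of 0.0529 to 0.153 and 0.0679 to 0.22. The retinoic acid induced meiotic gene Stra8, at 4475 and 4587 with EV and 2944 and 3244 with Dnmt1, passed the adjusted p with a log2 fold change of -0.55 (limma adjusted p = 7.64e-05).

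Gene families of the early embryo were lower as well. These lists were put together after the DEGs had been seen, and because their members are near-identical copies, the share of reads of each member is uncertain. Zscan4 genes mark a rare ESC state that resembles the embryo at genome activation. All 9 listed members were lower with Dnmt1 (median log2 fold change -0.58), and 4 were DEGs (44.4%, against 0.753% of all genes tested). All 9 passed the adjusted p, against 2.84% of all genes as lower. Zscan4d had 4361 and 3852 with EV and 2648 and 2773 with Dnmt1 (log2 fold change -0.60 ± 0.082 (SE), limma adjusted p = 0.000182). Its 2 EV values were both above its Dnmt1 values. All 5 Usp17l genes, a family of deubiquitinases, fell, with a median of -0.89 and with Usp17lb at 1042 and 966 against 492 and 501 (log2 fold change -1.01, limma adjusted p = 7.64e-05). Of 21 Pramel genes 18 were lower and 5 were DEGs (23.8%, median -0.69). Of 16 Eif1ad genes 15 were lower and 1 was a DEG (6.25%, median -0.46). Of 9 Rhox homeobox genes, 5 were lower and 4 higher, with a median of -0.02. Of these, Rhox1 alone fell, from 76.1 and 97.4 to 43.7 and 18.1, and its limma adjusted p was 0.272 without Dnmt1 sample 2, 0.0888 without EV sample a and 0.195 without EV sample b. Without EV sample a and without Dnmt1 sample 1, Zscan4d had log2 fold changes of -0.51 and -0.56, below the fold threshold, at adjusted p of 0.0125 and 0.0127 by limma. Usp17lb, Usp17la, Usp17le, Pramel16, Pramel20 and Zscan4-ps2 remained DEGs whichever library was left out.

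Neural genes were mostly higher. Of 39 neural progenitor and neuronal genes tested, 31 were higher and 8 lower with Dnmt1, 5 rose, and none fell (median log2 fold change 0.34). The 5 DEGs make 12.8% of the list, against 0.421% of all genes tested, and 10 members passed the adjusted p alone. This list too was chosen with earlier results of these data known.

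Zic1, a transcription factor of the dorsal neural tube, had 394 and 480.1 with EV and 1160.5 and 1030.5 with Dnmt1 (log2 fold change 1.33 ± 0.14 (SE), limma adjusted p = 6.95e-06). Zic2, a related factor, had 954 and 1042 against 1486 and 1584 (log2 fold change 0.62 ± 0.078 (SE), limma adjusted p = 7.64e-05). Both Dnmt1 samples were above both EV samples for each gene, and more than 2-fold so for Zic1. Zic5 passed the adjusted p at a log2 fold change of 0.54, under the fold threshold. Neurog1, a proneural factor that starts neuronal differentiation, was at 60.3 and 97.4 with EV and 234 and 191 with Dnmt1 (log2 fold change 1.45 ± 0.29 (SE), limma adjusted p = 0.00456). Onecut2 had 98.8 and 172 with EV and 197 and 292 with Dnmt1 (log2 fold change 0.88, limma adjusted p = 0.0253). Its groups were barely apart, since EV sample b and Dnmt1 sample 1 lay close together. Tubb3, the neuronal beta-tubulin, had 482 and 519 with EV and 840.0 and 777 with Dnmt1 (log2 fold change 0.69 ± 0.094 (SE), limma adjusted p = 0.000165).

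Zic1 and Tubb3 remained DEGs whichever library was left out. Neurog1 was lost without EV sample a (limma adjusted p = 0.105) and without Dnmt1 sample 1 (0.0993), and Onecut2 without EV sample a (0.349) and without Dnmt1 sample 2 (0.273). Zic2 stayed under an adjusted p of 0.05, at most 0.00456, but its log2 fold change was 0.56 without EV sample a and 0.57 without Dnmt1 sample 2, below the fold threshold.

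Several neural markers stayed under the thresholds. Nes, the intermediate filament of neural progenitors, was at 4531 and 4370.5 with EV and 6384 and 6185 with Dnmt1, a log2 fold change of 0.50 (limma adjusted p = 8.67e-05), just under 1.5-fold. Sox11 (0.26), Ncam1 (0.42) and Crabp1 (0.52) also passed the adjusted p alone. The progenitor factors Sox1 (2254 and 2592 with EV, 2684 and 2482 with Dnmt1), Sox2 (log2 fold change 0.075) and Pax6 (-0.01) did not pass it (limma adjusted p = 0.688, 0.668 and 0.978). Low genes had large but uncertain values: Hes5, a Notch target of progenitors, was at 20.7 and 19.7 with EV and 61.7 and 32.2 with Dnmt1 (log2 fold change 1.11, limma adjusted p = 0.217), and Neurog2 at 33.6 and 23.2 with EV and 57.5 and 40.3 with Dnmt1 (log2 fold change 0.76, adjusted p = 0.377).

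**Figure D3:**
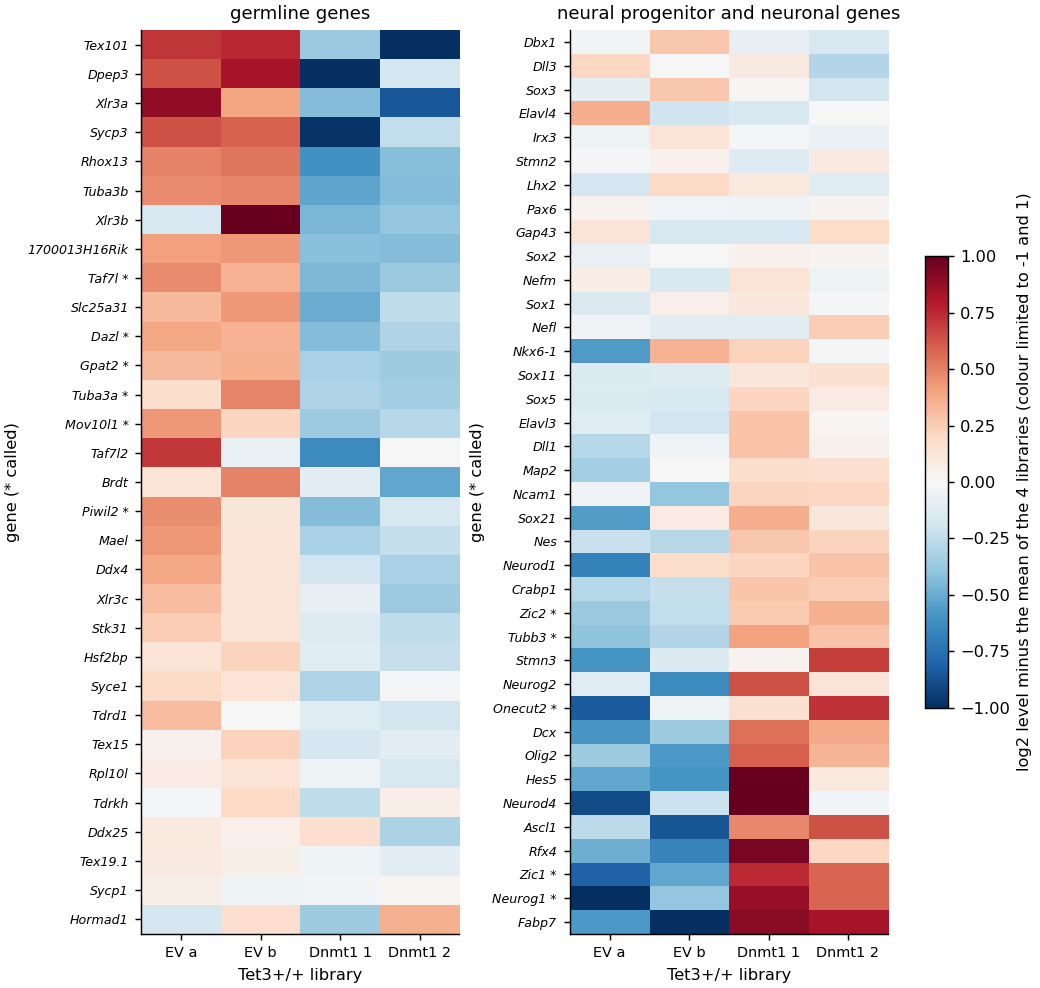
Log2 level of the tested germline genes and of the neural genes, apart from 1 that is not shown, in each of the 4 wild-type libraries (columns), minus the mean of the 4 libraries, with the colour scale limited to -1 to 1 and an asterisk at each DEG. The 31 germline genes were lower in the Dnmt1 libraries by a median of 0.63 on the log2 scale (log2 fold change -0.63), and 31 of the 39 neural genes tested were higher.

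Among the other DEGs that rose were genes of nerve growth and patterning. Insm1, a transcription factor of newborn neurons, had 122 and 114 with EV and 283 and 259 with Dnmt1 (log2 fold change 1.19, limma adjusted p = 0.0105). Srrm4, a splicing factor specific to neurons, had 52.4 and 39.4 against 117 and 109.8 (log2 fold change 1.30, adjusted p = 0.00947), and Ebf2, a helix-loop-helix factor, 63.2 and 54.5 against 142 and 134 (log2 fold change 1.22, adjusted p = 0.00974). Each of the 3 showed EV and Dnmt1 values more than 2-fold apart in their means, but Insm1 and Ebf2 were lost with any 1 library left out (limma adjusted p at least 0.0622 and 0.0509) and Srrm4 with any library but EV sample a left out (at least 0.058). Miat, a long noncoding RNA of neural tissue, had 113 and 97.4 with EV and 317 and 242 with Dnmt1 (log2 fold change 1.39) and was lost without Dnmt1 sample 1 (limma adjusted p = 0.0843). Vgf, a neuropeptide precursor, had 83.0 and 67.3 with EV and 179 and 161 with Dnmt1 (log2 fold change 1.17, limma adjusted p = 0.0016).

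Axon guidance genes were named after their values had been seen. Unc5c, a netrin receptor, had 322 and 317 with EV and 896 and 735 with Dnmt1 (log2 fold change 1.34 ± 0.19 (SE), limma adjusted p = 0.000212), and Unc5a 81.0 and 107 against 196 and 195 (log2 fold change 1.07, adjusted p = 0.00285). Of the 4 Unc5 genes 3 were higher, and 2 were DEGs (50%, against 0.421% of all genes tested). Draxin, a secreted guidance protein, had 477 and 529 with EV and 903 and 789.7 with Dnmt1 (log2 fold change 0.75), and Epha3, an ephrin receptor, 243 and 232 with EV and 456 and 440.2 with Dnmt1 (0.91). Flrt2, which binds Unc5 receptors, had 296 and 248 with EV and 566 and 473 with Dnmt1 (log2 fold change 0.93, limma adjusted p = 9.09e-05), and Slitrk2, a neuronal surface protein, 90.9 and 161 with EV and 293 and 326 with Dnmt1 (log2 fold change 1.35, adjusted p = 0.00285). The cadherins Fat4 and Dchs1, which bind each other between neighbouring cells, both rose. Fat4 had 287 and 267 with EV and 564 and 561 with Dnmt1 (log2 fold change 1.02), and Dchs1 1363 and 1249 with EV and 2239 and 2122 with Dnmt1 (log2 fold change 0.74). In all of these genes both Dnmt1 samples were above both EV samples. Unc5c, Epha3, Flrt2, Fat4 and Dchs1 remained DEGs whichever library was left out. Unc5a was lost without EV sample a (limma adjusted p = 0.0679), Slitrk2 likewise (0.0885), and Draxin without EV sample a (0.05003) and without Dnmt1 sample 1 (0.0732).

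Imprinted genes were mostly higher. Of 45 tested, 33 were higher and 12 lower with Dnmt1, 3 rose (6.67% of the list, against 0.421% of all genes) and none fell, and the median log2 fold change was 0.11. Plagl1, a zinc finger gene expressed from the paternal copy, had 6872 and 6963 with EV and 10959 and 10227 with Dnmt1 (log2 fold change 0.61 ± 0.051 (SE), limma adjusted p = 7.05e-07). Peg12, also paternal, had 524 and 482 against 902 and 799.8 (log2 fold change 0.76, adjusted p = 9.09e-05), and Ascl2, maternal and a trophoblast regulator, 148 and 201 against 361 and 289 (log2 fold change 0.90, adjusted p = 0.00669). All 3 showed both Dnmt1 samples above both EV samples. Ascl2 was lost without EV sample a (limma adjusted p = 0.129) and without Dnmt1 sample 1 (0.143), and Plagl1 was below the fold threshold without Dnmt1 sample 1 (log2 fold change 0.56). A further 6 imprinted genes passed the adjusted p alone, all of them higher: Zdbf2 (log2 fold change 0.57), Igf2 (0.40), Dlk1 (0.37), Peg3 (0.27), Peg10 (0.26) and Mest (0.23). The values do not separate the parental copies.

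Signalling genes gave few DEGs, where 0.421% of all genes tested rose and 0.753% fell. In the Wnt pathway, with 25 genes tested, 16 were higher and Ccnd1 was the only DEG. Ccnd1, cyclin D1, had 3631 and 3595 with EV and 6194 and 5643 with Dnmt1 (log2 fold change 0.71 ± 0.063 (SE), limma adjusted p = 1.39e-06), and it remained a DEG whichever library was left out. Myc (0.55), Sfrp2 (0.48) and Fzd10 (0.36) passed the adjusted p alone. The ligand Wnt1, a dorsal midline signal outside that list, had 100.8 and 59.1 with EV and 195 and 168 with Dnmt1 (log2 fold change 1.22, limma adjusted p = 0.0266). It was above EV in both samples, but it was lost without EV sample b (limma adjusted p = 0.299) and without either Dnmt1 sample (0.22 and 0.0944). Of 28 BMP and TGF-beta genes Bmp5 alone rose, from 104 and 76.5 to 211 and 156 (log2 fold change 1.02, adjusted p = 0.0344), and it was lost with any 1 library left out (limma adjusted p of 0.065 to 0.318). Of 20 FGF genes Etv4, a transcription factor downstream of FGF receptors, rose from 434 and 459 to 737 and 632 (log2 fold change 0.61, adjusted p = 0.000893), but was below the fold threshold without EV sample a (0.57) and without Dnmt1 sample 1 (0.50). Its relative Etv5 had 0.39. Of 17 Notch genes none was a DEG: Notch1 had 0.28 and Jag2 -0.26, both past the adjusted p.

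Genes of the retinoic acid pathway went both ways. Of 26 genes, 14 were higher and 12 lower (median 0.01), with 1 DEG in each direction. Each makes 3.85% of the list, against 0.421% of all genes tested as higher and 0.753% as lower. Rdh10, which makes retinaldehyde from retinol, had 2009 and 1914 with EV and 3165 and 3065 with Dnmt1 (log2 fold change 0.67 ± 0.068 (SE), limma adjusted p = 5.66e-06). Aldh1a1, which makes retinoic acid from retinaldehyde, had 1272 and 1349 against 837 and 831 (log2 fold change -0.65, adjusted p = 0.00995). Rdh10 remained a DEG whichever library was left out, whereas Aldh1a1 was lost with each (limma adjusted p of 0.0684 to 0.11). Cyp26a1, which breaks retinoic acid down, had -0.28, and Nr2f1, an orphan receptor that retinoic acid induces, 0.37, both past the adjusted p alone. Of 34 Hox genes 21 were higher (median 0.15). Hoxc8 and Hoxc9 rose, from 565 and 632 to 962 and 929.7 and from 781 and 713 to 1193 and 1203 (log2 fold changes 0.66 and 0.68), and Hoxd13 fell from 148 and 116 to 62.8 and 84.6 (-0.84, limma adjusted p = 0.0384). At the adjusted p alone, DEGs included, 5 Hox genes were higher and 5 lower. Hoxb1 (-0.55), Hoxb4 (-0.22) and Hoxb5 (-0.42) were among those lower, and Hoxa7 (0.47), Hoxb8 (0.34) and Hoxb9 (0.49) among those higher. Hoxd13 was lost with any 1 library left out (limma adjusted p of 0.0502 to 0.327), and Hoxc8 was below the fold threshold without EV sample a (0.58).

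Metabolic genes that fell included targets of the glucose-sensing factors ChREBP and MondoA. This list of 7 was chosen after the values had been seen, with 6 lower and 4 DEGs (57.1%, against 0.753% of all genes tested). Txnip, which limits glucose uptake and is the best known of these targets, had 18530.2 and 17727 with EV and 8730.0 and 9896 with Dnmt1 (log2 fold change -0.96 ± 0.054 (SE), limma adjusted p = 1.17e-09). Its relative Arrdc4 had 3495 and 3650.4 against 2269.8 and 2432 (log2 fold change -0.60, adjusted p = 2.1e-06). In both the Dnmt1 samples were far below the EV samples, and Txnip remained a DEG whichever library was left out. Pik3ip1 (-0.64) and Mlxipl, which encodes ChREBP (-0.66), fell too, but Mlxipl was lost with each library left out (limma adjusted p of 0.131 to 0.245) and Pik3ip1 without EV sample a (0.0666) and without Dnmt1 sample 1 (0.0576). Arrdc4 was below the fold threshold without EV sample b and without Dnmt1 sample 1 (-0.57 and -0.55).

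Of 29 glycolysis and hypoxia genes none was a DEG, but 25 were lower and the median log2 fold change was -0.16. The adjusted p was passed by 11 of the 29 as lower, against 2.84% of all genes tested. The enzyme gene Aldoa had 94272 and 90629 with EV and 74225 and 71123 with Dnmt1 (log2 fold change -0.35, limma adjusted p = 0.000457) and Pgk1 47810.2 and 45788 against 37628 and 35893 (log2 fold change -0.35, adjusted p = 0.000143). The glucose transporters Slc2a1 and Slc2a3 had -0.22 and -0.27. Of 28 cholesterol and fatty acid synthesis genes 25 were higher, with a median of 0.14 and no DEG. The adjusted p was passed by 8 of the 28 as higher, against 2.75% of all genes tested. Scd2 had 0.27, Fasn 0.26 and Idi1 0.33. Igfbp2, which binds insulin-like growth factors, had 45066 and 44554 with EV and 29739.6 and 29774 with Dnmt1 (log2 fold change -0.59 ± 0.042 (SE), limma adjusted p = 5.84e-08). The other DEGs of this family, chosen after the values had been seen, were Igfbp6 (168 and 155 against 72.4 and 105) and Igfbp7 (171 and 167 against 85.2 and 84.6). Igf1 itself rose from 166 and 176 to 345 and 324 (0.96, limma adjusted p = 7.64e-05). In each of these 4 genes the groups were apart, but Igfbp7 was lost with any 1 library left out (limma adjusted p of 0.0531 to 0.074), Igfbp6 with any but Dnmt1 sample 2 (at least 0.0617), and Igfbp2 had a log2 fold change of -0.58, below the fold threshold, without EV sample a.

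Interferon and antigen presentation genes split. Of 26 tested, 12 were higher and 14 lower (median -0.07), with 2 DEGs in each direction. These make 7.69% each, against 0.421% of all genes tested as higher and 0.753% as lower. Isg15, a ubiquitin-like modifier induced by interferon, had 29.6 and 20.9 with EV and 102 and 108 with Dnmt1 (log2 fold change 2.03 ± 0.30 (SE), limma adjusted p = 0.000422). Ifit1, an RNA sensor induced by interferon, was at 19.8 and 27.8 with EV and 57.5 and 98.7 with Dnmt1 (log2 fold change 1.64, adjusted p = 0.0139). Psmb8, a subunit of the immunoproteasome, had 154 and 159 against 68.1 and 69.5 (log2 fold change -1.17 ± 0.19 (SE), limma adjusted p = 0.000866). Isg15 and Ifit1 were thus higher in both Dnmt1 samples and Psmb8 lower in both. Usp18, which removes ISG15 from proteins, was at 56.3 and 53.3 with EV and 27.7 and 28.2 with Dnmt1 (log2 fold change -0.95, adjusted p = 0.0426), and the call was lost with any 1 library left out (limma adjusted p of 0.134 to 0.19), with edgeR, with DESeq2 and with the 4 samples alone in the fit. Ifit1 was lost without EV sample a (0.14) and without Dnmt1 sample 2 (0.179). The class I genes H2-K1 (-0.38) and H2-D1 (-0.24) passed the adjusted p as lower.

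The other lists of lineage and stress genes gave at most 1 DEG in a direction, where 0.421% of all genes tested rose and 0.753% fell. Of 20 naive pluripotency factors none was a DEG (median 0.08): Esrrb (0.22), Tfcp2l1 (0.20) and Tbx3 (0.19) passed the adjusted p as higher and Dppa5a (-0.21) as lower. Of 20 core and primed pluripotency genes only Zic2 rose (median 0.08), while the adhesion genes Cdh2 (0.50) and Cdh1 (-0.19) passed the adjusted p in opposite directions. Of 33 endoderm genes 22 were lower (median -0.09) and 1 fell, Trf, the gene for transferrin, from 783 and 735 to 385 and 447 (-0.87, limma adjusted p = 0.00132). Apoe (21235 and 22221 with EV, 14471 and 15812 with Dnmt1) had -0.52, under the fold threshold. Of 29 primitive streak and mesoderm genes none was a DEG (median 0.02), with Hand2 (0.50), Eomes (0.47) and Meox1 (0.37) past the adjusted p as higher. Of 18 trophoblast-associated genes Ascl2 was the only DEG (median 0.13).

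Of 18 fibroblast genes, which cover feeder cells, the matrix gene Fbln2 fell from 1079.7 and 1138 to 703 and 698 (-0.66, limma adjusted p = 0.000271) and the mesenchymal factor Prrx1 rose from 91.9 and 83.5 to 172 and 147 (log2 fold change 0.86, adjusted p = 0.0274), with a median of 0.05. Prrx1 was lost with any 1 library left out (limma adjusted p of 0.0743 to 0.238). Collagen genes were likewise split, with 17 higher and 23 lower of 40 (median -0.05): Col14a1 rose (575 and 459 against 1056 and 938, 0.95) and Col8a1 fell (765 and 654 against 437 and 479, -0.63), whereas Col1a2 (-0.48) and Col3a1 (0.46) passed the adjusted p in opposite directions. Col8a1 was lost without EV sample a (limma adjusted p = 0.15) and without Dnmt1 sample 1 (0.14). Of 19 smooth muscle and SRF target genes none was a DEG (median 0.10), and Acta2 had 0.36 (limma adjusted p = 0.0481). None of 15 YAP-TEAD targets passed the adjusted p (median 0.00).

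Of 24 p53 targets none was a DEG (median 0.04), and Trp53 itself had 0.24 (limma adjusted p = 0.00446). Of 25 genes of the integrated stress response Atf3 alone passed the adjusted p (0.33, median 0.07). Of 20 unfolded protein and heat shock genes Hspa1a, the inducible HSP70, fell from 703 and 720.1 to 379 and 401 (-0.87, limma adjusted p = 0.000347), while Hsph1 had 0.30. Of 28 CDK inhibitors and cyclins Ccnd1 was the only DEG (median 0.08), and Ccnd2 had 0.27. Of the 27 genes that the study's text names for their RNA level, 19 were higher and 8 lower, Dnmt1 was the only DEG, and Tet2 was the only other one past the adjusted p. Among them the cell cycle inhibitors Cdkn1a (0.10), Cdkn2a (-0.019) and Cdkn2b (-0.068) and the mesodermal factor Hand1 (0.21) had limma adjusted p of 0.383, 0.932, 0.793 and 0.48, and Hrc was at 219 and 225 with EV and 134 and 195 with Dnmt1 (log2 fold change -0.45, adjusted p = 0.194).

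The response of wild-type cells was next set beside that of Tet3m/m and Tet3-/- cells, which have EV and Dnmt1 samples of their own. With the Dnmt1 vector 321 genes rose and 123 fell in Tet3m/m cells (1.78% and 0.681%), and 453 rose and 185 fell in Tet3-/- cells (2.51% and 1.02%). The effect in wild-type cells differed from that in Tet3m/m cells for 109 genes (0.604%) and from that in Tet3-/- cells for 721 genes (3.99%), by limma's interaction test with the same thresholds.

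Of the 76 genes that rose in wild-type cells, 65 had a higher mean with Dnmt1 in Tet3m/m cells as well, 38 of them as DEGs, and the median log2 fold change there was 0.71. In Tet3-/- cells 32 of the 76 were higher, 12 were DEGs in the same direction and 4 in the other, and the median was -0.07. The effect on 43 of the 76 differed from that in Tet3-/- cells, on 9 from that in Tet3m/m cells and on 30 from neither. Of the 136 genes that fell, 124 were lower in Tet3m/m cells (median -0.47), 30 as DEGs and 2 as DEGs in the other direction. In Tet3-/- cells 44 of the 136 were lower (median 0.31), 4 were DEGs in the same direction and 31 in the other. The effect on 89 of the 136 differed from that in Tet3-/- cells, on 5 from that in Tet3m/m cells and on 46 from neither. The genes that rose or fell were picked by their wild-type effect, which is also part of each difference. Their counts are therefore not comparable with the 0.604% and 3.99% of all genes tested. Only 6 genes, namely Dnmt1, Irs4, Tubb3, Vgf, Ifit1 and Adam12, rose in all 3 genotypes, and no gene was a DEG as lower in all 3. Irs4, an adaptor of insulin signalling, had log2 fold changes of 0.82, 1.71 and 0.59 in wild-type, Tet3m/m and Tet3-/- cells, and Adam12, a metalloprotease, 1.04, 1.83 and 1.02. In wild-type cells Irs4 was lost without EV sample a (limma adjusted p = 0.0553) and without Dnmt1 sample 1 (0.0511), and Adam12 with any 1 library left out (at least 0.0501).

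**Figure D4:**
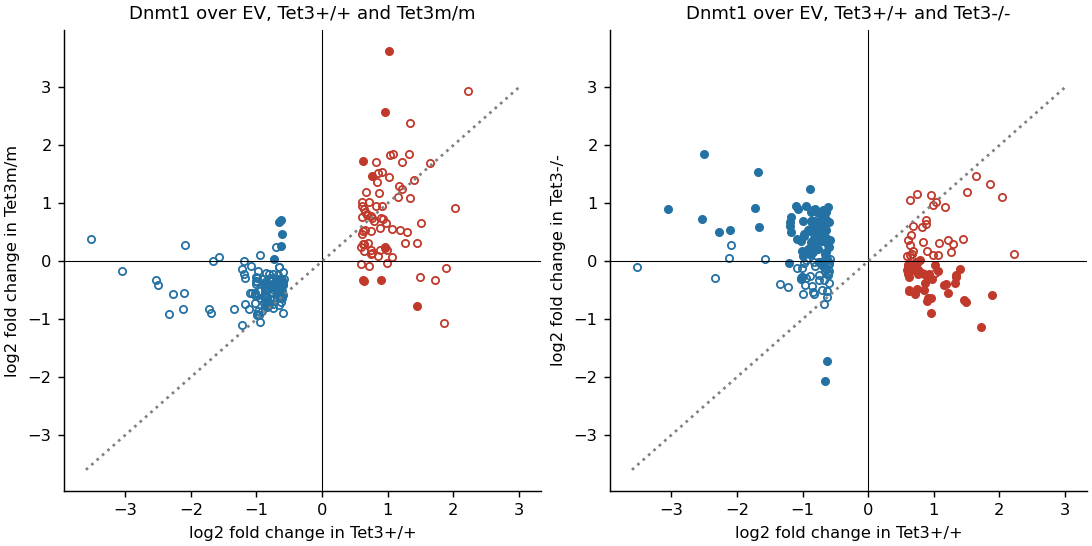
Log2 fold change of Dnmt1 over EV of the 212 wild-type DEGs in wild-type cells (x axis) against that in Tet3m/m cells (left) and Tet3-/- cells (right), with filled points for genes whose effects differed by the interaction test and a dotted line where both are equal. Of the 136 genes that fell in wild-type cells 124 were also lower in Tet3m/m cells and 44 in Tet3-/- cells.

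Germline genes responded differently in wild-type and Tet3-/- cells. Of the 31, 30 were lower with Dnmt1 in Tet3m/m cells (median -0.31), where Mov10l1 was the only DEG (log2 fold change -0.62, limma adjusted p = 0.00272). In Tet3-/- cells 25 were higher (median 0.36) and 10 were DEGs as higher, against 2.51% of all genes tested. Among the 10 were Dazl (log2 fold change 0.69, limma adjusted p = 0.00635), Taf7l (log2 fold change 0.89, adjusted p = 0.000976) and Ddx4 (log2 fold change 0.69, adjusted p = 9.14e-05). The effect of 14 of the 31 differed between wild-type and Tet3-/- cells, against 3.99% of all genes tested. The difference was -1.42 on the log2 scale for Dazl (limma adjusted p = 0.000389) and -1.71 for Taf7l (7.56e-05). The effect of none of the 31 differed between wild-type and Tet3m/m cells. All 9 Zscan4 genes rose in Tet3-/- cells (median 0.83), and their median in Tet3m/m cells was -0.34. The medians of the Usp17l, Pramel and Eif1ad families were 0.85, 0.81 and 0.85 in Tet3-/- cells. The rise there was not particular to germ cell and early-embryo genes. All 20 naive pluripotency factors were also higher with Dnmt1 in Tet3-/- cells (median 0.56), against 9393 of all 18055 genes tested, and 9 were DEGs. The effect on 6 of the 20 differed between wild-type and Tet3-/- cells.

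Neural genes had a median of 0.24 in Tet3m/m and -0.35 in Tet3-/- cells. The effect on 7 of the 39 differed between wild-type and Tet3-/- cells, and on 1 between wild-type and Tet3m/m cells. Over all genes tested these shares were 3.99% and 0.604%. Zic1 had 1.86 in Tet3m/m and -0.38 in Tet3-/- cells, and Zic2 0.52 and -0.50, and for both the effect differed between wild-type and Tet3-/- cells (limma adjusted p = 8.89e-06 and 1.32e-06). Neurog1 differed from both, with -0.77 in Tet3m/m and -0.66 in Tet3-/- cells, neither of which passed its own test (limma adjusted p = 0.104 and 0.146). Ccnd1 had 1.03 in Tet3m/m and -0.57 in Tet3-/- cells, and its difference between wild-type and Tet3-/- cells was among the 5 with the smallest p, with Dlk1, Dppa2, Fbxo15 and Zscan4-ps3. The 5 smallest p between wild-type and Tet3m/m cells were those of the matrix genes Ccdc80, Tnc, Smoc2, Dcn and Col1a2. Txnip was lower with Dnmt1 in all 3 genotypes (-0.96, -0.93 and -0.40), though under the fold threshold in Tet3-/- cells.

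**Figure D5:**
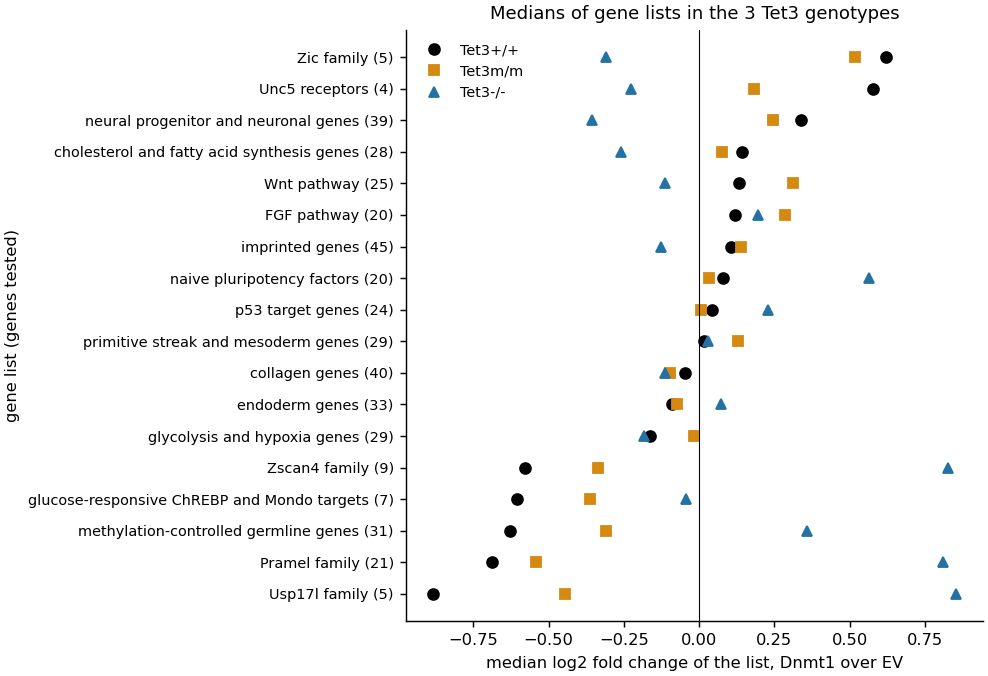
Median log2 fold change of Dnmt1 over EV (x axis) of selected gene lists in wild-type, Tet3m/m and Tet3-/- cells, 1 point per genotype and a line at 0. The germline list had medians of -0.63, -0.31 and 0.36 and the neural list 0.34, 0.24 and -0.35.

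Genes that differ between untransfected genotypes were last followed in the transfected wild-type cells, using other samples of the series collected on day 3 of the same treatment (3 Tet3+/+, 3 Tet3m/m and 2 Tet3-/-). In Tet3m/m cells 907 of 17915 genes were higher (5.06%) and 929 lower (5.19%) than in wild-type cells, by the same thresholds. Of the former, 892 were tested in the Dnmt1 comparison of wild-type cells, where 57 fell (6.39%, against 0.753% of all genes) and 3 rose (0.336%, against 0.421%), and their median log2 fold change was -0.15. Of the latter, 904 were tested, 36 rose (3.98%) and 6 fell (0.664%), with a median of 0.07. These shares are counts without a test of their difference. In Tet3-/- cells 82 genes were higher (0.458%) and 33 lower (0.184%) on day 3. Of the 82, 81 were tested, and 2 rose and none fell with Dnmt1 in wild-type cells (median 0.09). Of the 33, 2 fell and none rose (median 0.00). All of these sets come from the limma fit used here. The study applied a different test to raw counts and reports more genes in each direction for mutant and knockout cells, above all knockout. The short knockout sets are thus not evidence that few genes changed, and the cause of the gap was not tested.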

How the data were processed

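RNA-seq of 4 Tet3+/+ samples was analysed, with 8 Tet3m/m and Tet3-/- samples of the same experiment in the fit and 8 day 3 samples for gene sets. The authors trimmed reads with Trim Galore (0.6.7), aligned them with STAR (2.7.9a; the methods name mm39, the processing notes mm10), counted them per gene with featureCounts and divided the counts by DESeq2 size factors; the deposited signal values are these normalized counts. Every value was a whole multiple of 1 read within 0.01, so reads were recovered for edgeR and DESeq2. Genes with a mean of at least 10 over the 12 samples were tested (18055 of 18091). Means of 6 groups were fitted in limma 3.58.1 (R 4.3.3, empirical Bayes trend) to log2(value + 1), which understates changes of low genes, with Benjamini-Hochberg adjustment over all genes tested. DEGs differ more than 1.5-fold with adjusted p under 0.05. The fit was run on simulated reads, with 2-fold changes in genes with a mean above 50 and the same relative spread in every gene. Smaller changes and a spread that differs between genes or groups were not simulated. Alternatives were pseudocounts of 0.1 and 5, no filter, a mean of at least 50, edgeR 4.0.16, DESeq2 1.42.0, TMM factors, the 4 samples alone, no fold threshold and each library left out. Named genes are the methylation and demethylation genes, the 15 largest rises and falls among DEGs with a mean of at least 50, genes the paper names for RNA level, the DEGs of each list (or its 2 highest members) and the 5 smallest p between genotypes; others are said to have been chosen after their values were seen or are list members past the adjusted p. Members and lists were chosen with earlier results of these data known. Counts per gene limit the precision of low genes, and intervals beyond the SE were not computed. Promoters came from RefSeq (GRCm38.p6). For all genes tested, the DEGs and the neural list fewer than 80% of genes had a promoter, so only the germline list was described, beside the genes tested that had one. Values of a few single genes are not reported here, although counts and medians of their lists include them.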

Additional observations from a re-analysis of the deposited data

Results flagged for a closer look

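The results given here are named genes whose response to the Dnmt1 vector differed between genotypes by limma's interaction test, with an adjusted p under 0.05 and a difference above 1.5-fold. Each value is the log2 fold change of Dnmt1 over EV in wild-type cells minus that in the other genotype, so a negative value means a lower or more negative response in wild-type cells. Many of the named genes were chosen as wild-type DEGs, and the wild-type response is part of each difference. The signs below therefore partly follow from that choice. Groups of 2 samples are too small to be searched for samples that stand apart.

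Between wild-type and Tet3-/- cells, the named germ cell genes that differed had negative values: Shoc1 (-3.23), Taf7l (-1.71), Dazl (-1.42), Prss50 (-1.38), Tuba3a (-1.37), Piwil2 (-0.95), Mov10l1 (-0.81), Gpat2 (-0.69). Genes of early-embryo families, of pluripotent cells and unnamed loci, partly in multigene families whose reads are shared, had AF067061 (-2.07), Gm21818 (-1.97), BC147527 (-1.92), Gm27167 (-1.87), Zscan4-ps3 (-1.67), Otud6a (-1.48), Fbxo15 (-1.26), Dppa2 (-1.24), Usp17lb (-1.19), AC133095.2 (-1.18), Dppa5a (-0.89). Neural, guidance and patterning genes had positive values: Zic2 (1.12), Miat (1.53), Slitrk2 (1.58), Insm1 (1.59), Unc5c (1.62), Zic1 (1.71), Wnt1 (1.76), Neurog1 (2.12). The named imprinted genes had Plagl1 (0.84), Peg12 (0.91), Dlk1 (1.16). Other genes lower in the difference were Psmb8 (-1.68), Hspa1a (-1.56), Trf (-1.21), Vstm2b (-0.74), Mcam (-0.71), Myl9 (-0.67), Col8a1 (-0.66), and others higher were Bmp4 (0.71), Rdh10 (0.81), Bmpr1b (0.96), Prrx1 (1.07), Ccnd1 (1.28), Aldh1a1 (1.42), Col14a1 (1.84), Tril (1.56) and Disp3 (2.19). The limma adjusted p of these differences ran from 2.9e-08 (Ccnd1, Dlk1 and Fbxo15) to 0.0494 (Gpat2).

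Between wild-type and Tet3m/m cells the negative values were mostly those of matrix and mesenchymal genes: Bmp5 (-2.61), Dcn (-2.28), Col14a1 (-1.63), Smoc2 (-1.61), Aldh1a1 (-1.32), Ccdc80 (-1.32), Tnc (-1.28), Col1a2 (-1.13), Col8a1 (-0.90), Bmp4 (-0.71), Cdkn2b (-0.67). The positive values were Ascl2 (1.22), Neurog1 (2.22). Here the limma adjusted p ran from 1.64e-08 (Col1a2) to 0.027 (Cdkn2b). Aldh1a1, Bmp4 and Col14a1 differed in opposite directions from the 2 genotypes. The transfected Tet3-/- samples with Dnmt1 differed more from each other than those of wild-type cells (log2 distance over all genes of 68.6, against 56.5), and the part of this spread in the differences was not tested.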

How the results depend on the processing

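No sign change occurred among the 212 DEGs under any alternative. With 1 library left out none could occur, because their EV and Dnmt1 values did not overlap. The count of DEGs was 322 (221 of them lower) with the 4 wild-type samples alone in the fit and 1010 (497 higher and 513 lower) without a fold threshold. It ranged from 75 to 165 with 1 library left out (30 to 69 higher, 40 to 113 lower), where the lone sample of a group is assumed to vary like the other groups. Of the 212, 202 were shared with edgeR, 196 with DESeq2, 189 with a pseudocount of 0.1 and 62 to 111 with 1 library left out. Differences between genotypes numbered 236 (Tet3m/m) and 1753 (Tet3-/-) without the fold threshold, and 79 to 88 and 473 to 643 with 1 library left out. DEGs of the germline list numbered 10 with DESeq2, 11 with the 4 samples alone and 1 to 6 with 1 library left out, with list medians of -0.65 to -0.42. Those of the neural list numbered 8 with the 4 samples alone, 10 without the fold threshold and 3 to 6 with 1 library left out, with medians of 0.26 to 0.47. The log2 fold change of Dnmt1 was 0.61 to 0.67. Under the other alternatives these counts stayed within 1.5-fold.

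Signs turned only among genes near 0 that were not DEGs: with edgeR and with TMM factors for Mbd1 (-0.00091 and -0.00099) and Mbd4 (-0.00033 and -0.0015), with TMM factors for Bmpr1b (-0.00089), with edgeR and DESeq2 for Fgf9 (0.026 and 0.026), and otherwise with 1 library left out, where log2 fold changes ran from -0.037 to 0.0079 for Dnmt3b, from -0.026 to 0.011 for Usp7, from -0.023 to 0.022 for Hdac1, from -0.042 to 0.076 for Hdac2, from -0.0054 to 0.012 for Mbd1, from -0.081 to 0.11 for Mbd2, from -0.069 to 0.074 for Mbd4, from -0.00596 to 0.20 for Sox1, from -0.036 to 0.057 for Gata6, from -0.19 to 0.16 for Mcam, from -0.037 to 0.025 for Bin1, from -0.18 to 0.045 for Cdkn2b, from -0.35 to 0.34 for Fgf9, from -0.12 to 0.12 for Bmpr1b, from -0.05004 to 0.094 for Pdik1l, from -0.15 to 0.55 for Sfrp4, from -0.042 to 0.0034 for Tpm1 and from -0.056 to 0.00895 for Rbpj. The cause was not tested. No paired analysis was possible because both EV columns of wild-type cells carry the same number. Low counts limit some neural genes: Hes5 and Neurog2 were at most at 61.7 in any library.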
